A study of Homo sapiens with 9 samples.

Results

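RAS-induced senescence was described by comparing IMR90 ER:RAS fibroblasts in which RAS had been switched on with the same cells in which it had not. All arrays whose labels give an empty vector were taken, which gave 6 of the 9 arrays of the series, in 2 groups of 3. The non-senescent group, vector-4OHT, carried ER:RAS and the empty vector and received no 4-hydroxytamoxifen (4OHT). The senescent group, vector+4OHT, carried the same constructs and received 100 nM 4OHT. The labels give 6 days after 4OHT and 7 days of growth, and they give them for the untreated arrays too. The IMR90 line comes from human lung and consists of fibroblasts. In ER:RAS, oncogenic RAS is joined to the ligand-binding domain of an oestrogen receptor and stays inactive until 4OHT binds. Both groups therefore carried the fusion and the vector, and no group received 4OHT without carrying ER:RAS, so that effects of the drug and of RAS cannot be told apart. The 3 further arrays, which carried an ARID1B hairpin and 4OHT, entered the fit to add to the estimate of the spread and are not described here.

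An oncogenic RAS signal passes through the kinases RAF, MEK and ERK to transcription factors, and the same signal induces inhibitors of that route. In normal fibroblasts a sustained signal ends in a stable arrest that involves the p16 and RB route and the p53 and p21 route. The arrested cells are known for a reorganised nucleus, a changed matrix and a strong secretory response. Lists of the factors they secrete, the genes of mitosis and the genes of cholesterol synthesis were kept out of the genes and lists named below. They stayed in the counts over all genes and in the promoter groups.

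Values are log2 expression levels as deposited, on a scale where 1 unit is a 2-fold difference, and differences are senescent minus non-senescent. A gene was called when the adjusted p of limma was under 0.05 over the 18417 genes measured. On that rule 5996 genes, 32.6%, were called, of which 2747 were higher (14.9% of all genes) and 3249 were lower (17.6%). A difference of 2-fold or more was seen for 249 of the genes called higher (1.35%) and 299 of those called lower (1.62%). The median change over all genes was -0.01. Shares of a gene list are read below against these shares, since about 1 gene in 3 was called. The plot of change against level shows that the rises reached further than the falls.

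**Figure D1:**
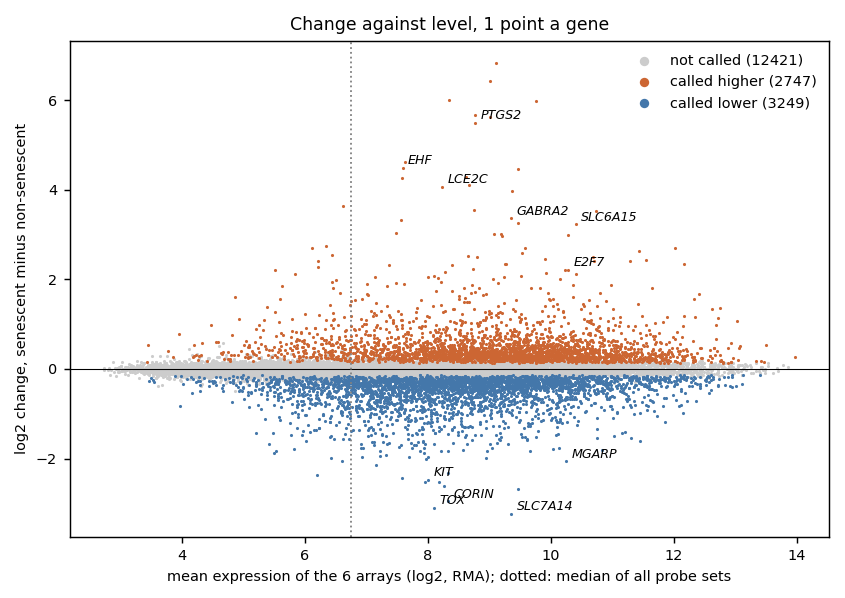
Each point is a gene, with the mean log2 level of the 6 arrays on the x axis and the log2 change (senescent minus non-senescent) on the y axis. The points of the 2747 genes called higher and the 3249 called lower are coloured, and the falls stopped near -3.24 (SLC7A14) while rises went past 5.49 (PTGS2). Unlabelled points above PTGS2 are secreted factors.

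The arrays of a group were alike. Across probe sets, correlations lay between 0.9955 and 0.9969 for the 6 pairs within a group and between 0.9874 and 0.9894 for the 9 pairs between groups. These are correlations across probe sets of arrays normalised together. All 10 fibroblast markers measured had a mean above the median of all probe sets (6.75) in both groups, while only 1 of 8 leukocyte markers (CD68) and 2 of 10 endothelial markers did. The summed log2 level of the fibroblast markers lay between 112.38 and 113.49 on non-senescent arrays and between 108.87 and 109.59 on senescent arrays, and 8 of the 10 were called lower, led by the proteoglycan DCN with a change of -1.60 (adjusted p = 2.24e-08, limma). The summed leukocyte markers lay between 46.76 and 46.98 on non-senescent arrays and between 46.66 and 47.59 on senescent ones, and PTPRC, CD3E and MS4A1 stood below the median of all probe sets in both groups. The endothelial sums, 57.95 to 58.51 and 57.57 to 58.77, overlapped between the groups. Of 8 epithelial markers 4 were above the median of all probe sets in both groups, with sums of 57.28 to 57.41 on non-senescent and 55.47 to 56.61 on senescent arrays, and 2 were called lower (1 with only the 6 arrays compared), led by KRT19 (-1.10), while CDH1 and EPCAM stood below that median. Of 8 smooth muscle markers 5 were above it in non-senescent and 6 in senescent cells, with sums of 68.07 to 69.17 and 67.02 to 67.91, 2 were called higher and 3 lower, and MYH11 stood below it. The part of these sets in the results was not tested. In bulk RNA a smaller share of cells that express a gene and less RNA per cell cannot be told apart.

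The genes related to the switch differed by less than 2-fold between the groups. HRAS, 1 of the RAS genes, stood at 12.38, 12.37 and 12.55 on non-senescent arrays and at 12.77, 12.70 and 12.70 on senescent arrays. The groups did not overlap, and the difference was 0.28 ± 0.058 (SE), with an adjusted p of 0.00291. The labels do not say which RAS gene the fusion carries, and a probe set cannot tell a transgene from the cell's own gene. ESR1, which encodes the oestrogen receptor, had means below the median of all probe sets in both groups and differed by 0.27 (adjusted p = 0.00518). Averaging the probe sets of ESR1 brought its difference to 0.08, which did not pass the test.

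The largest rises outside the kept-out lists were of genes whose mean in non-senescent cells was below the median of all probe sets. PTGS2, which encodes cyclooxygenase-2, the inducible enzyme of prostaglandin synthesis, read 5.87, 5.93 and 6.26 without 4OHT and 11.56, 11.42 and 11.55 with it. Every senescent array was far above every non-senescent one, by 5.49 ± 0.094 (SE) or 44.8-fold (adjusted p = 2.89e-11). TMEM156, a transmembrane protein, went from 5.46, 5.21 and 5.29 to 9.85, 9.98 and 10.0, a difference of 4.62. EHF, an ETS transcription factor best known from epithelia, went from 5.19, 5.46 and 5.39 to 9.72, 9.91 and 9.89, which was 22.5-fold (adjusted p = 2.89e-11). KYNU, the kynureninase of tryptophan breakdown, read 6.77, 6.31 and 6.39 without 4OHT and 10.81, 10.68 and 10.81 with it. The rule for naming these genes required arrays without overlap between the groups, which held for 7377 of the 18417 genes. FER1L6, a member of the ferlin family, rose by 3.33, the inwardly rectifying potassium channel KCNJ15 by 3.02 and the complement protein C3 by 2.32.

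Genes that were already above the median of all probe sets in non-senescent cells rose by up to 3.55. TAGLN3, a transgelin relative known from neurons, read 7.11, 6.80 and 7.01 against 10.54, 10.53 and 10.51, which was 11.7-fold higher (adjusted p = 9.85e-11). GABRA2, a subunit of the GABA-A receptor, read 7.58, 7.67 and 7.76 against 10.94, 11.04 and 11.11. LCE2A, a gene of the skin's cornified envelope described with its relatives at the end, rose by 3.53. SLC6A15, a carrier of branched-chain and other neutral amino acids, read 8.91, 8.71 and 8.77 against 11.99, 11.98 and 12.09. The rule again required groups without overlap, and several of these proteins are best known from neurons. PRDM1, which encodes the transcriptional repressor Blimp-1, rose by 3.02 ± 0.061 (SE), and DCC, a netrin receptor, by 2.96 ± 0.082 (SE). The others of the 12 were the cytochrome P450 CYP2S1 (2.70), the protease inhibitor TFPI2 (2.63), ENC1 (2.59), the neuropeptide galanin, GAL (2.53), the glutaminyl cyclase QPCT (2.51) and the metalloprotease ADAM19 (2.50). TFPI2, GAL and C3 are secreted proteins that were not on the kept-out list.

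The largest falls were of genes that non-senescent cells expressed at middle to high levels. SLC7A14, of the cationic amino acid transporter family, read 10.88, 10.99 and 11.06 without 4OHT and 7.55, 7.74 and 7.92 with it. The groups were far apart, and the level was 9.43-fold lower in senescent cells (adjusted p = 9.12e-10). TOX, a transcription factor with an HMG box, read 9.73, 9.56 and 9.65 against 6.42, 6.57 and 6.66, so that its senescent mean was below the median of all probe sets. Falls followed for CORIN, a membrane protease that processes atrial natriuretic peptide (-2.96), the corticotropin-releasing hormone binding protein CRHBP (-2.68), CEMIP, which is needed for hyaluronan breakdown (-2.61), and the small heat shock protein CRYAB (-2.51). Further falls were seen for RASSF2, a protein with a RAS association domain (-2.33), the mitochondrial protein MGARP (-2.06), the matrix glycoprotein RELN (-2.02), CCBE1 (-2.00), MCUB, which damps the mitochondrial calcium uniporter (-1.96), and the receptor GPRC5A (-1.84). TLR3, a sensor of double-stranded RNA, read 8.59, 8.92 and 8.87 against 6.24, 6.31 and 6.51, a fall of 2.44 to below the median of all probe sets. PRUNE2 (-2.14), the PCNA-binding protein PCLAF (-1.96), the galactosyltransferase B3GALT2 (-1.95), the ATP-sensitive potassium channel subunit ABCC9 (-1.84) and the cohesin acetyltransferase ESCO2 (-1.75) also fell to below it. The 3 senescent arrays held the same value for CCBE1, 7.95, which lowers its measured spread.

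**Figure D2:**
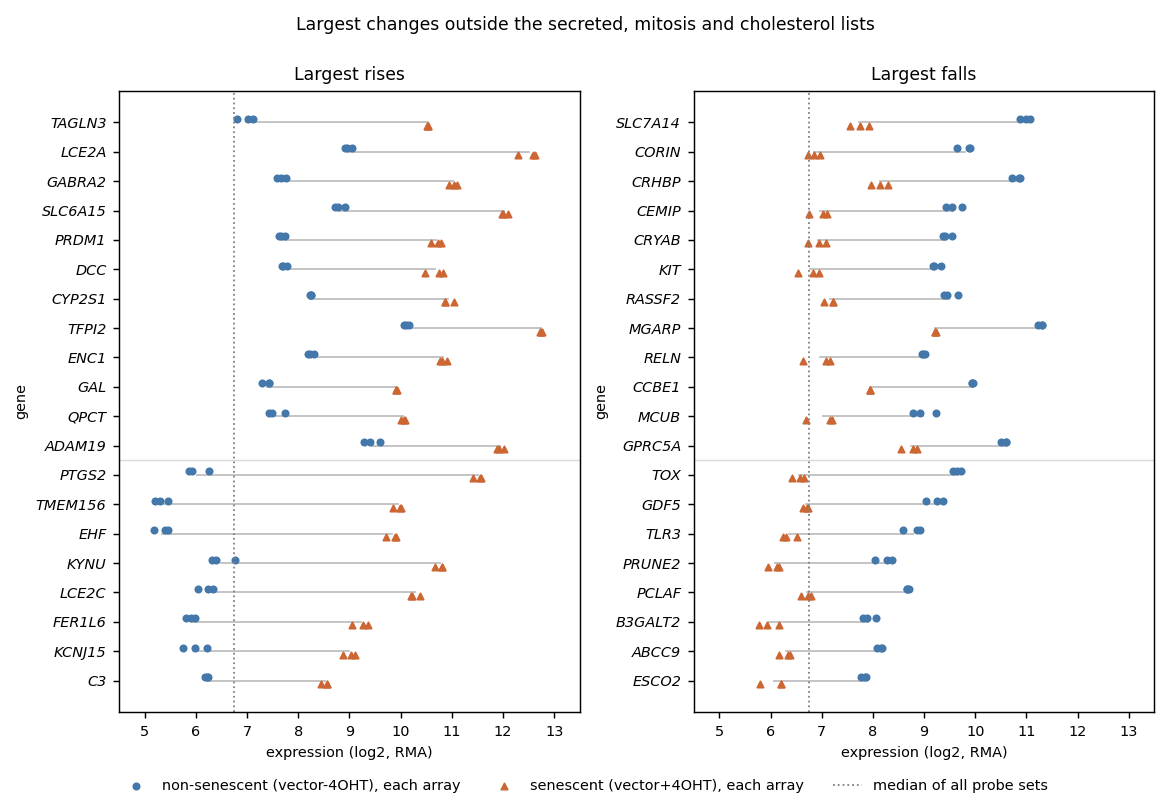
Each row is a gene and each point an array, with log2 expression on the x axis, circles for the 3 non-senescent arrays and triangles for the 3 senescent arrays; the dotted line is the median of all probe sets (6.75). Above the grey divider both means lie above that median, and below it the genes crossed it; in every row the groups are apart, as the rule for naming these genes required.

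Among the 33 gene lists described, that of ERK feedback had the highest share of members called higher, 70.6%. It held 17 measured inhibitors and targets of ERK signalling, of which 12 were called higher and 1 lower, with a median change of 0.34. DUSP6, a phosphatase that inactivates ERK, read 10.03, 10.10 and 9.98 against 11.91, 11.89 and 11.91. Its arrays were tight in both groups, and it was 3.65-fold higher (adjusted p = 4.46e-10). The Sprouty proteins, which block the route above ERK, were split. SPRY4 rose by 1.87 and SPRY2 by 1.53, with the same value (11.38) on all 3 senescent arrays, while SPRY1 fell by 0.41. DUSP4 rose by 1.16 and the ETS factor ETV4 by 1.06, while ETV5 differed by 0.10 (not called).

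Of 25 AP-1 members and early response factors, 14 were called higher and 3 lower, with a median of 0.31. EGR3, a zinc finger factor induced by growth signals, read 5.94, 6.10 and 6.32 against 8.06, 8.36 and 8.08, a rise from below the median of all probe sets. The early response gene IER3 rose by 1.67 and EGR1 by 0.98. Within AP-1 itself, JUNB (1.05), FOSB (0.45), FOS (0.36) and JUN (0.27) rose, FOSL2 fell by 0.68, and FOSL1 differed by -0.16 and JUND by -0.06, neither of which passed the test. MYC rose by 0.64.

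NF-kappaB and C/EBP factors with their regulators were called higher for 12 of 20 members and lower for 0, with a median of 0.43. NFKBIZ, a nuclear cofactor of NF-kappaB, read 7.33, 7.07 and 7.30 against 9.51, 9.53 and 9.59. No array of 1 group came near the other, and the rise was 4.96-fold (adjusted p = 1.67e-09). TNFAIP3, the A20 inhibitor of the pathway, rose by 1.5, IRAK2 by 1.27, TNIP1 by 1.04, NFKBIA by 0.87 and CEBPB by 0.81. RELA differed by 0.12 and CEBPD by -0.11, and neither passed the test.

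Promoter sequences were set beside these groups as a description. The kept-out lists stayed in here. The genes called 2-fold or more higher held 35 secreted factors, and those called 2-fold or more lower held 36 mitosis genes and 2 cholesterol genes. RefSeq promoters (GRCh38.p14, from 250 bases before to 50 bases after the gene start) were given for 14239 of the 18417 genes. The AP-1 motif TGANTCA, read on both strands, was in 795 (5.58%) of them, in 20 of 175 (11.4%) of genes called 2-fold or more higher and in 7 of 239 (2.93%) of genes called 2-fold or more lower. The NF-kappaB motif was in 1761 (12.4%) of all, in 35 (20%) of those higher and in 27 (11.3%) of those lower. The E-box CACGTG was in 8.88%, 10.9% and 7.95%, and the cyclic AMP response element TGACGTCA in 2.65%, 1.14% and 5.02%. These motifs can fall on the same bases, no test was made, and a match is not a site that was shown to be bound. The plot of the largest changes drew 20 rises, 12 from above the median of all probe sets and 8 from below it. Of these 20 rises, 15 had a promoter, and at least 3 of the 15 held an AP-1 motif. The promoters of 3 such genes are printed 5′ to 3′ on the gene's strand with the motif in capitals. They show where the motif lies in genes that rose 24.6-fold (TMEM156), 8.12-fold (KCNJ15) and 6.18-fold (TFPI2). TMEM156 lies on the minus strand, chr4:39032360-39032659, KCNJ15 on the plus strand, chr21:38272258-38272557, and TFPI2 on the minus strand, chr7:93890704-93891003.
TMEM156: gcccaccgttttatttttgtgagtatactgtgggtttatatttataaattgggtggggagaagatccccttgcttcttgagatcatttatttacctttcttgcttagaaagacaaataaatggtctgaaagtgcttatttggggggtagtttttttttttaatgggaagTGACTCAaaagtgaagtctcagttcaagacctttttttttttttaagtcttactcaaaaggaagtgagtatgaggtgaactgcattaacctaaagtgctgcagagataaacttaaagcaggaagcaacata
KCNJ15: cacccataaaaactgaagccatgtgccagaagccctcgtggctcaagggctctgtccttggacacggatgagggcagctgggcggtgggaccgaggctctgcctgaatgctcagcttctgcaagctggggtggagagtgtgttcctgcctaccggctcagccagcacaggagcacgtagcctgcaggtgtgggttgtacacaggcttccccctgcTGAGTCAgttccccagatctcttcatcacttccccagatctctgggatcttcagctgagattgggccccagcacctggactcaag
TFPI2: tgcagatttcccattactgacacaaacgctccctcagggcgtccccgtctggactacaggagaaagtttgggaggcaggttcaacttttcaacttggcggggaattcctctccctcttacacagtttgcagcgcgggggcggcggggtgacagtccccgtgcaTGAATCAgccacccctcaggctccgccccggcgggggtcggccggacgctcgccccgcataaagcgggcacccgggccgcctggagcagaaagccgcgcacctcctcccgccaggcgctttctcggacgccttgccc
The motif began 81, 35 and 87 bases before the gene start, in that order.

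Receptor tyrosine kinases, the receptors that feed RAS, were called lower for 18 of 35 members and higher for 7, with a median of -0.21. KIT, the receptor of stem cell factor, read 9.33, 9.18 and 9.20 against 6.54, 6.83 and 6.94. KIT was 5.54-fold lower in senescent cells (adjusted p = 8.57e-09, limma) and was among the largest falls, for which the rule required no overlap. ROR1, a Wnt receptor of this family, fell by 1.29, MET by 0.87, ERBB2 by 0.74, AXL by 0.63 and IGF1R by 0.62. Both PDGF receptors fell less, PDGFRB by 0.29 and PDGFRA by 0.27. The members called higher included EPHA4 (0.60), EGFR (0.49) and FLT1 (0.47).

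**Figure D3:**
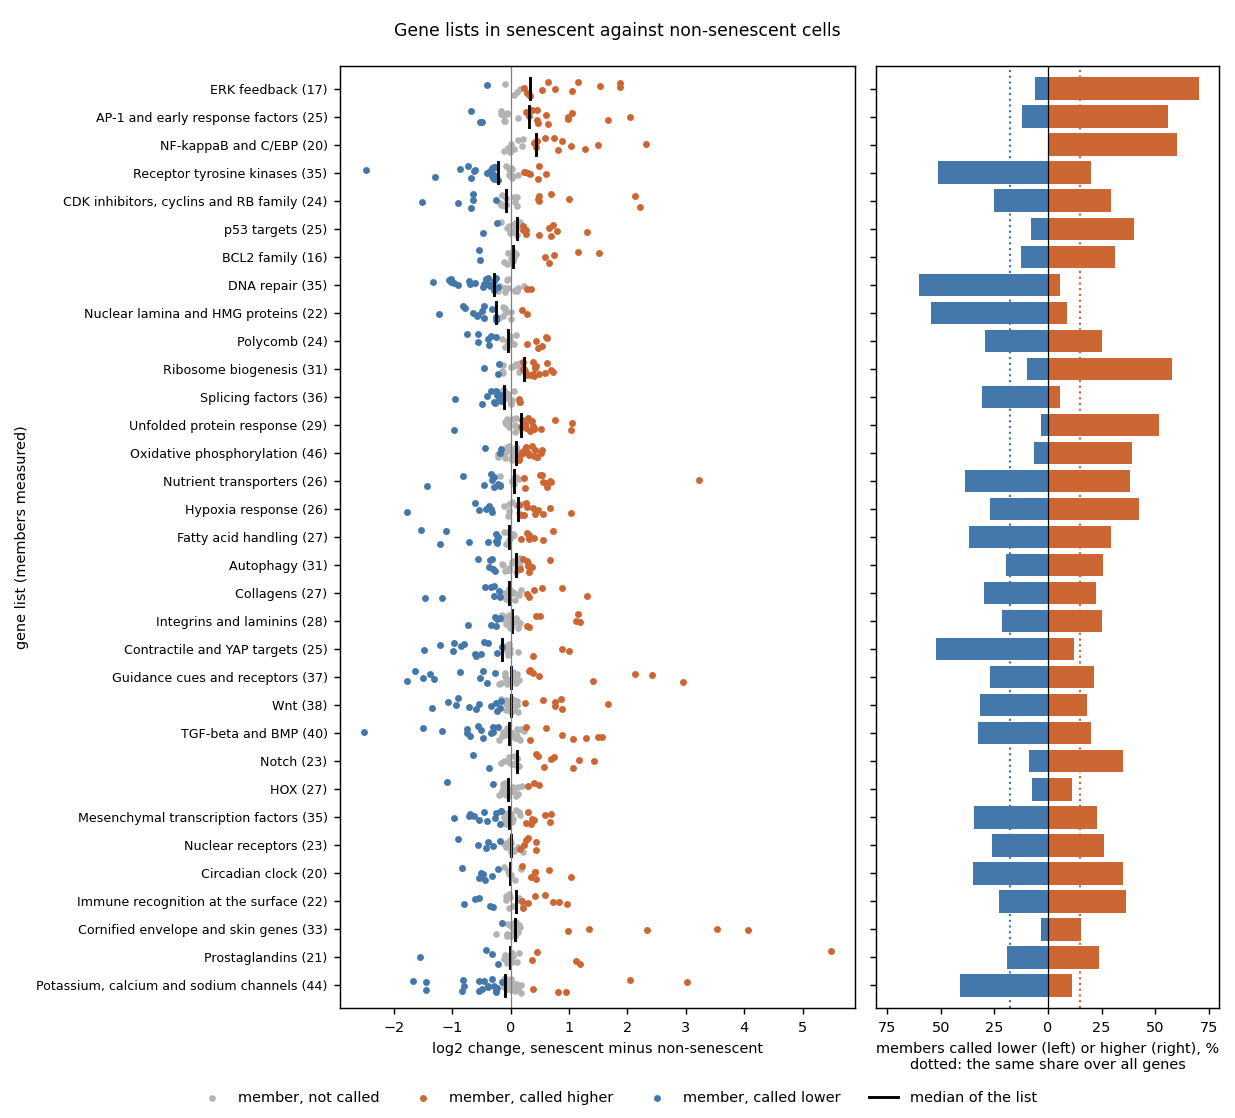
On the left each point is a member of a gene list at its log2 change (senescent minus non-senescent), with the list's median as a black bar; on the right bars give the percent of measured members called lower and higher, beside dotted lines at 17.6% and 14.9% for all genes. ERK feedback, NF-kappaB and ribosome biogenesis reach furthest to the right, and DNA repair, lamina and HMG, contractile genes and receptor tyrosine kinases furthest to the left.

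The arrest genes did not move as 1 group. Of 24 CDK inhibitors, cyclins and RB or E2F family members, 7 were called higher and 6 lower, shares of 29.2% and 25%, with a median of -0.08. CDKN2B, which encodes the CDK4 and CDK6 inhibitor p15, read 8.95, 8.80 and 8.81 against 10.96, 11.04 and 10.96, a 4.38-fold rise (adjusted p = 4.72e-10). All 3 senescent arrays were about 2 units above the others. CDKN2A, the locus of p16 and ARF, rose less, by 0.49 ± 0.055 (SE), and CDKN1A (p21) by 0.69. CDKN1B (p27) fell by 0.65 and CDKN1C (p57) differed by -0.15, which did not pass the test. E2F7, a repressing member of the E2F family, read 9.13, 9.20 and 9.20 against 11.31, 11.48 and 11.35, while its relative E2F8 fell by 0.68. The cyclins E went apart, with CCNE2 lower by 1.51 and CCNE1 higher by 0.49. Among the kinases on the list CDK2 rose by 1.0, while CDK6 fell by 0.65 and CDK4 by 0.24.

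Among 25 targets of p53, 10 were called higher and 2 lower, with a median of 0.10. PLK3 (1.30), the death receptor TNFRSF10B (0.80), the ribonucleotide reductase subunit RRM2B (0.73) and CDKN1A (0.69) led the rises. MDM2 (0.15), BAX (0.08) and FAS (-0.03) did not pass the test, and GADD45A fell by 0.47. In the BCL2 family 5 of 16 were called higher and 2 lower. The survival factor MCL1 read 11.34, 11.28 and 11.31 against 12.45, 12.43 and 12.50, a rise of 1.15 at a high level. BCL2A1, another survival factor, rose by 1.52 and the death effector BAK1 by 0.75, while BCL2 fell by 0.54, the death initiator BCL2L11 (BIM) by 0.52, and BCL2L1 differed by 0.04 (not called).

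DNA repair genes were called lower for 21 of 35 members (60%) and higher for 2, with a median of -0.29. BARD1, the partner of BRCA1, read 7.84, 7.76 and 7.75 against 6.18, 6.45 and 6.73. Its senescent arrays varied more than the others but stayed below them, and it fell by 1.33 ± 0.11 (SE). XRCC2 fell by 1.06, the helicase BLM by 1.03, EXO1 by 1.02, BRIP1 by 0.98 and FANCI by 0.90. Genes of end joining stood elsewhere, with XRCC5 at -0.10, XRCC6 at -0.05 and PRKDC at 0.12 (none called), and LIG4 higher by 0.28. The kinase ATM was higher by 0.34.

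Genes of the nuclear lamina and the HMG chromatin proteins were called lower for 12 of 22 members (54.5%) and higher for 2, with a median of -0.25. HMGB2 read 8.33, 7.76 and 7.98 against 6.75, 6.93 and 6.73, a fall of 1.22. LMNB1, which encodes lamin B1, read 7.26, 6.91 and 6.70 against 6.14, 6.01 and 6.25. The groups did not overlap although the non-senescent arrays varied, and LMNB1 fell by 0.82 ± 0.12 (SE, adjusted p = 0.000349). The lamin B receptor LBR fell by 0.79 and LMNA by 0.45, while LMNB2 differed by -0.12 (not called) and HMGA1 rose by 0.28. The Polycomb list was split, with 6 of 24 called higher and 7 lower. It also held the histone demethylases KDM6A and KDM6B, which act against Polycomb. KDM6B rose by 0.46 and KDM6A differed by -0.07 (not called). The methyltransferases EZH2 and EZH1 fell by 0.75 and 0.56, whereas SUZ12 (0.08) and EED (-0.02) did not pass the test and the accessory subunits MTF2 and JARID2 rose by 0.63 and 0.60.

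Genes of growth and protein handling were called higher more often than lower, by small amounts. Of 31 ribosome biogenesis genes 18 (58.1%) were called higher and 3 lower, with a median of 0.22 and no member at 2-fold. POLR1B, a subunit of RNA polymerase I, read 8.38, 8.28 and 8.40 against 9.02, 9.09 and 9.13, and the processing factors RRP12 and NOP16 rose by 0.69 and 0.63. NPM1 and NCL, abundant nucleolar proteins, differed by 0.00 and 0.06 and were not called. In the unfolded protein response 15 of 29 were called higher and 1 lower (median 0.17). EDEM1, which directs misfolded glycoproteins to degradation, rose by 1.05, CHAC1 by 1.04, DNAJB9 by 0.76 and the chaperone HSPA5 (BiP) by 0.29. The member called lower was asparagine synthetase, ASNS, with 7.91, 7.81 and 7.99 against 6.95, 6.91 and 6.96, and its regulators ATF4 (0.03) and DDIT3 (-0.06) were not called. Splicing factors went the other way, with 11 of 36 called lower and 2 higher and a median of -0.12, led by PTBP2 (-0.95) and QKI (-0.48). With array medians subtracted, 7 were called lower.

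Oxidative phosphorylation genes were called higher for 18 of 46 members (39.1%) and lower for 3, with a median of 0.09. Without non-senescent replicate 2, or without replicate 3 of that group, 11 were called higher. The called rises went no further than 0.54 (NDUFB6) and NDUFA9 fell by 0.44. Autophagy genes were nearer the shares of all genes, with 8 of 31 called higher (25.8%) and 6 lower (19.4%), with 5 called higher when senescent replicate 2 was left out. ATG4A rose by 0.68 and ULK2 fell by 0.56, and SQSTM1 differed by -0.04 (not called).

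Carriers of nutrients were called in both directions, 10 of 26 each way, although 6 were lower with array medians subtracted. Beside SLC6A15, the amino acid carriers SLC7A6 (0.69), SLC7A2 (0.67) and SLC7A5 (0.56) rose, while SLC38A4 fell by 1.43. Glucose carriers went apart, with SLC2A3 higher by 0.50, SLC2A6 higher by 0.54, SLC2A1 lower by 0.34 and SLC2A12 lower by 0.81. In the hypoxia list 11 of 26 were called higher and 7 lower. HIF1A rose by 0.47 and EPAS1, which encodes HIF-2alpha, fell by 0.54. ARNT2, a partner of these factors, read 8.82, 8.84 and 8.83 against 6.94, 7.20 and 7.05, a fall of 1.77 in which the groups stood far apart.

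Of the genes of fatty acid handling 8 of 27 were called higher and 10 lower. The fat cell regulator PPARG read 10.81, 10.74 and 10.81 against 9.52, 9.54 and 9.65, a 2.32-fold fall (adjusted p = 3.33e-08). The binding proteins FABP3 and FABP4 fell with it, by 1.53 and 1.11, and the desaturase SCD by 0.71. FABP3 read 9.99 on all 3 senescent arrays. CD36, a fatty acid receptor, rose by 0.73 at levels near the median of all probe sets, and ACADVL, a mitochondrial dehydrogenase, by 0.55.

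Contractile genes and YAP targets were called lower for 13 of 25 members (52%) and higher for 3, with a median of -0.14. LMOD1, an actin nucleator of smooth muscle, read 9.28, 9.32 and 9.49 against 7.68, 8.03 and 7.95. Its groups did not overlap, and the non-muscle myosin MYH10 fell by 1.21, CNN1 by 0.97, MYLK by 0.85, TAGLN by 0.80 and ACTA2, smooth muscle actin, by 0.46. Of the YAP targets AMOTL2 fell by 0.60 and CCN1 fell by 0.52, CCN2 differed by -0.05 (not called) and ANKRD1 rose by 0.38. MYOCD (0.99) and SMTN (0.88) were higher.

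Collagens were called higher for 6 of 27 and lower for 8. The fibrillar chains COL1A2, COL3A1 and COL1A1 fell by 0.45, 0.34 and 0.29, and COL5A1 (-0.03) and COL5A3 (0.04) were not called. COL15A1 and COL14A1 fell more, by 1.47 and 1.17. The basement membrane chains COL4A1 and COL4A2 rose by 0.88 and 0.53, while COL4A3 (-0.03), COL4A4 (-0.04) and COL4A6 (0.17) were not called, and COL10A1 rose by 1.30. For COL4A1 the arrays read 8.87, 8.92 and 9.08 against 9.76, 9.88 and 9.87, with no overlap. Integrins and laminins were called higher for 7 of 28 and lower for 6. ITGB5 rose by 1.18, ITGA2 by 1.15 and ITGB3 by 1.11, while ITGAV, the partner of ITGB3 and ITGB5, fell by 0.23 and the laminin chain LAMA2 by 0.73.

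Guidance cues and their receptors had members at both ends of the range, with 8 of 37 called higher and 10 lower and a median of 0.01. DCC read 7.71, 7.78 and 7.68 against 10.47, 10.83 and 10.74. Beside this netrin receptor, SEMA7A read 9.52, 9.39 and 9.55 against 11.87, 11.94 and 11.92, and SEMA6D rose by 2.12. In the other direction NTN4, a netrin, read 10.93, 10.80 and 11.03 against 9.03, 9.13 and 9.25, and falls were also seen for SEMA3D (-1.63), PLXNC1, the receptor of SEMA7A (-1.49), and SLIT2 (-1.32). The SLIT receptors ROBO1 (-0.06) and ROBO2 (0.14) did not pass the test.

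**Figure D4:**
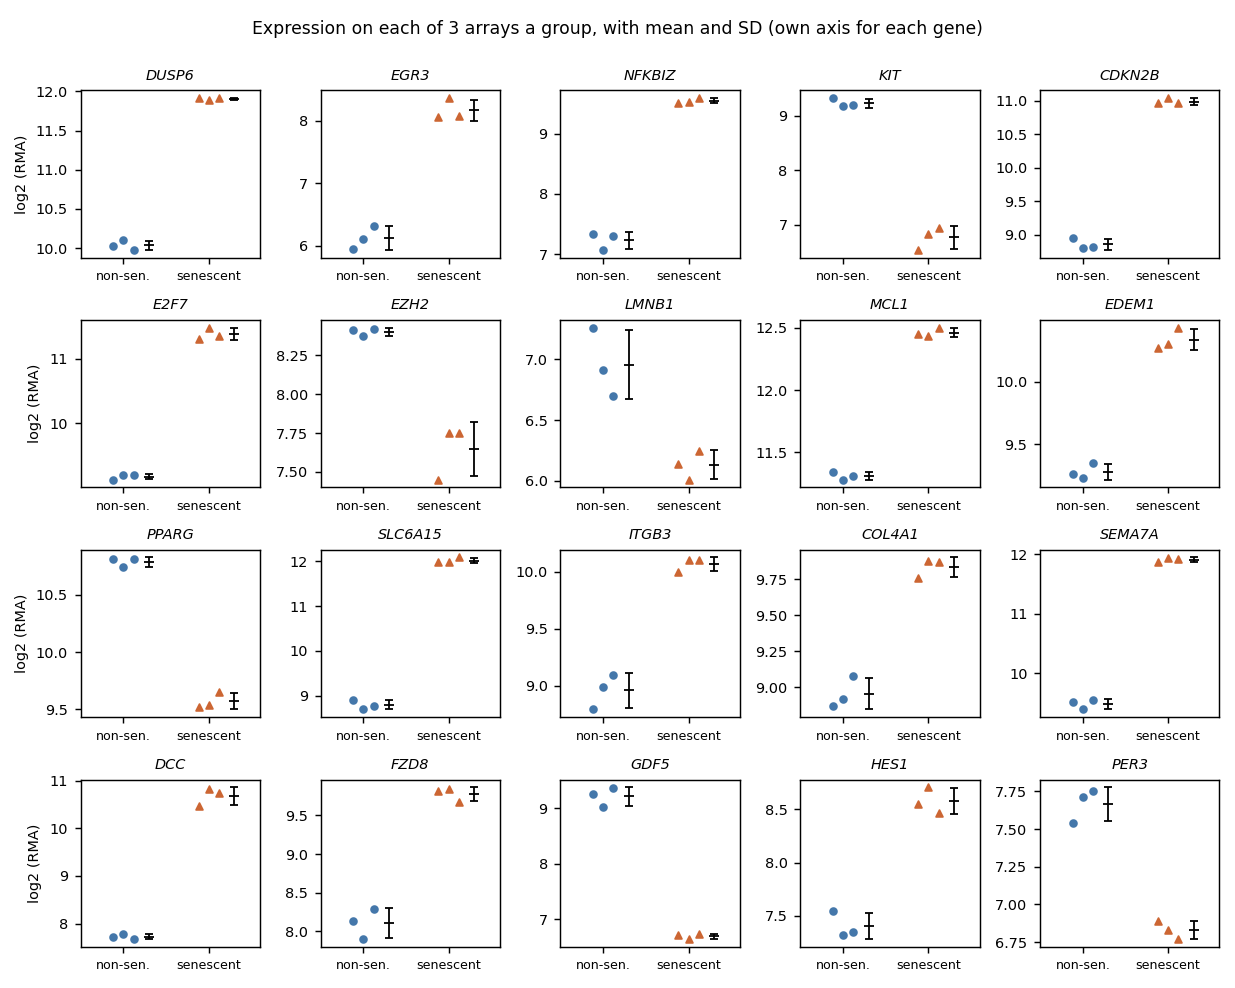
Each panel is a gene, with the 3 non-senescent arrays as circles and the 3 senescent arrays as triangles on a log2 axis of its own; black bars give the mean and SD of the 3 arrays. The panels were chosen by hand among called genes. No panel has overlapping groups, which held for 7377 of all 18417 genes. The largest rise is in SLC6A15 (3.23) and the largest fall in GDF5 (-2.52).

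Wnt, TGF-beta and Notch genes were described by role. Of 38 Wnt genes 7 were called higher and 12 lower (median 0). Among the receptors FZD8 read 8.14, 7.90 and 8.29 against 9.81, 9.84 and 9.67, a 3.17-fold rise, FZD1 rose by 0.76, and FZD2 and FZD7 fell by 1.07 and 0.54. The ligand WNT5A rose by 0.86 and WNT2 fell by 0.89. Of the secreted antagonists FRZB (-1.35), DKK1 (-0.94), SFRP1 (-0.71) and DKK3 (-0.33) fell, DKK2 rose by 0.75, and SFRP2 (0.06) and WIF1 (0.04) were not called. The nuclear factor LEF1 rose by 0.88.

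Of 40 TGF-beta and BMP genes 8 were called higher and 13 lower. The ligand GDF5 read 9.25, 9.03 and 9.36 against 6.71, 6.64 and 6.73, and BMP4 fell by 1.18. The co-receptor TGFBR3 fell by 1.51 and the type I receptor ACVRL1 rose by 1.06. Among target genes and inhibitors SKIL (1.56), ID1 (1.49), ID3 (1.30) and SMAD7 (0.88) rose, BAMBI fell by 0.48, and ID2 (0.09) and SMAD6 (-0.09) were not called. ID1 read 8.10, 8.04 and 7.66 without 4OHT and 9.51, 9.29 and 9.47 with it. The signal transducers SMAD1 (0.00), SMAD3 (-0.03) and SMAD5 (-0.03) were not called. In the Notch list 8 of 23 were called higher (34.8%) and 2 lower, the latter 4 without senescent replicate 1. The target genes HEY1 and HES1 rose by 1.42 and 1.17, while the other HES and HEY family members on the list were not called. NUMB, which antagonises the receptor, rose by 1.06. The ligands JAG1 and DLL4 rose by 0.74 and 0.69, and the other JAG and DLL ligands on the list were not called. NOTCH1 rose by 0.44 and NOTCH3 by 0.47, whereas NOTCH2 fell by 0.64.

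Factors that mark the position and origin of a fibroblast changed by less than 2-fold, apart from HOXA2. Of 27 HOX genes measured, 22 were not called, 3 were higher, with HOXB5 at 0.49, and 2 were lower, with HOXA2 at -1.09. Leaving out non-senescent replicate 1 brought the number lower to 6. For 14 of them both means were below the median of all probe sets. Among 35 mesenchymal transcription factors 8 were called higher and 12 lower, with none at 2-fold. The lung mesenchyme factors TBX5 and TBX4 fell by 0.72 and 0.64, FOXF1 rose by 0.30, and FOXD1 and MEF2C rose by 0.69 and 0.67. SNAI2 fell by 0.41 and ZEB2 by 0.54, while SNAI1 and ZEB1 rose by 0.40 and 0.37.

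Nuclear receptors were called higher and lower for 6 of 23 each, led by the mineralocorticoid receptor NR3C2, which read 8.0, 8.02 and 8.0 against 7.02, 7.14 and 7.17. The glucocorticoid receptor NR3C1 rose by 0.29. Clock genes were called for 7 of 20 each way. BMAL1, NPAS2 and NR1D1 rose by 0.65, 0.42 and 0.41, BHLHE40 by 1.03, and PER3, CIART, NR1D2 and DBP fell by 0.83, 0.55, 0.51 and 0.47. The hours at which the arrays' cells were collected are not given in the sources used here.

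Surface proteins seen by immune cells were called higher for 8 of 22 and lower for 5. The NKG2D ligands ULBP2 and ULBP1 rose by 0.82 and 0.73 and ULBP3 by 0.30, while MICA differed by 0.14 (not called). The checkpoint ligands went apart. CD274 (PD-L1) read 6.61, 6.46 and 6.29 against 7.17, 7.47 and 7.59, a rise of 0.96 near the median of all probe sets, and PDCD1LG2 (PD-L2) read 11.15, 11.06 and 10.96 against 10.19, 10.27 and 10.29. TAP1, a peptide transporter, rose by 0.59, while the peptidase ERAP1 fell by 0.61 and the signal CD47 by 0.36.

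Genes of prostaglandin synthesis and reception were called higher for 5 of 21 and lower for 4, the latter 2 without replicate 2 of either group. Beside PTGS2, the phospholipase PLA2G4A rose by 1.12, the thromboxane synthase TBXAS1 by 1.2, the terminal synthase PTGES by 0.44 and the prostacyclin receptor PTGIR by 0.36. PTGS1, the constitutive cyclooxygenase, fell by 0.42. The receptor PTGER2 read 10.36, 10.49 and 10.34 against 8.76, 8.86 and 8.90, a 2.95-fold fall (adjusted p = 1.26e-08), while PTGER4 differed by -0.11 (not called).

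Ion channels were called lower for 18 of 44 members (40.9%) and higher for 5, with a median of -0.09. KCNJ2, an inward rectifier that sets the resting potential, read 10.06, 10.17 and 10.17 against 8.40, 8.49 and 8.50. In the same family KCNJ15 read 5.98, 6.21 and 5.74 against 8.87, 9.10 and 9.03, the opposite direction. The potassium channel KCNK2 fell by 1.46 and the sodium channel SCN9A fell by 1.45, while KCNG1 rose by 2.05 and TRPA1, an irritant receptor, by 0.95 from a high level.

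Most skin genes were not called. Of 33 measured genes of the cornified envelope and its neighbours, 27 were not called, 5 were higher and 1 was lower, and both means of 17 were below the median of all probe sets. The 5 were cornified envelope genes. LCE2C read 6.04, 6.34 and 6.24 against 10.21, 10.38 and 10.23, and LCE2A read 8.95, 8.92 and 9.05 against 12.58, 12.62 and 12.30. LCE2B, LCE1F and LCE2D rose by 2.33, 1.34 and 0.99. These genes are close copies whose probe sets can share signal, so that the number of genes behind the rise is uncertain. The relatives LCE1C (0.08), LCE1D (0.10) and LCE3A (0.08), and the envelope genes FLG (0.08) and IVL (0.04), were not called.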

How the data were processed

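Total RNA of IMR90 ER:RAS cells was hybridised to Affymetrix Human Gene ST arrays (the labels' extraction text names an Illumina library kit instead). The log2 values were deposited by the authors after RMA (which corrects background, normalises by quantiles and summarises the probes of a set). The submitters' processing notes name RMA, oligo and limma. Their versions and the genome build are not given in the sources used here. Of 33297 probe sets, 19460 carried exactly 1 gene symbol. Genes with several (769) were represented by the probe set of highest mean, which left 18417 genes.

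All 9 arrays were fitted in R 4.3.3 by lmFit and eBayes of limma 3.58.1, the group being the single term, and 2-sided p-values were adjusted by Benjamini-Hochberg over all genes. The script was tested on simulated data. With 3 arrays in each group, an exact permutation test could not reach a p under 0.1. Precision is limited by how few arrays there were. The article calls the 3 replicates biological. Nothing in the labels tells whether they came from separate cultures, and p-values cover the spread between these samples alone. In 418 genes all 3 arrays of 1 of the 2 groups compared gave an identical value, which lowers the measured spread. The hairpin arrays were not counted there, although they entered the fit. They too held identical values for some genes, such as KCNJ15.

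Members and lists were chosen with earlier results of these data known. Named genes were the 12 largest rises and 12 largest falls of called genes without overlap between the arrays, both means at or above the median of all probe sets and not on the secreted, mitosis or cholesterol lists. The 8 largest rises from below that median to at least 1 above it and the 8 falls the other way, up to 4 called members of each of 33 lists by smallest p, HRAS and ESR1, and the cell type markers were added. Other members in the text illustrate their list and were picked after their values were seen. Of 1221 list entries 1125 were measured. The others were not analysed here. No set test was run.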

Additional observations from a re-analysis of the deposited data

How the results depend on the processing

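The 5996 calls (2747 higher, 3249 lower) were recomputed under each alternative. The methods' t-test, the 2-sided Student t-test that the article names for its statistics in general, called 5998 genes at its unadjusted threshold. For the arrays the submitters' notes name limma. After Benjamini-Hochberg the t-test called 3737 genes, of which 1737 were higher and 2000 lower. Of the 319 genes named, 268 were called, and 25 of these lost their call there, among them HRAS (adjusted p = 0.0526), CDKN1B (0.0627), COL1A1 (0.0621) and LCE2D (0.0821). Of 76 counts over lists and marker sets (members called higher or lower), 25 changed there by over 1.5 times. They included DNA repair at 12 lower, receptor tyrosine kinases at 11 lower, splicing factors at 4 lower, collagens at 4 lower and oxidative phosphorylation at 11 higher. The counts were 5658 (2581 higher, 3077 lower) with the replicate number as a block and 5236 with only the 6 arrays compared. Without dim genes 5858 were called, of 11945 genes tested. Averaging the probe sets of a gene gave 5979 (where ESR1 was lost). Subtracting array medians gave 5684, and a prior that follows the mean level gave 6235. Leaving out 1 array gave 5288 to 5969 calls. Subtracting array medians moved the median change by 0.035 and the share of calls that were higher from 45.8% to 53.2%, and 7 list medians that lay near 0 changed sign. No named gene changed direction with a call under any alternative. Beside those under the methods' t-test, calls were lost by ESR1 and by SNAI1, which was lost without non-senescent replicate 3 (adjusted p = 0.0529) or senescent replicate 2 (0.0514). Calls were gained by FOSL1, MDM2 and MICA without non-senescent replicate 1, by CDKN1C and ROBO2 without senescent replicate 1, and by MDM2 and MICA with the prior that follows the mean level. At the unadjusted threshold of the methods' t-test BRCA1 and NDUFB6 were lost and PTPRC and MS4A1 gained. Deviations of arrays with the same replicate number correlated at -0.21, -0.04 and -0.01, and those with other numbers at -0.331 to 0.337. With 3 arrays a group these values cannot tell whether the numbers pair the arrays. The block changed no named call. Removing dim genes moved a list's median by up to 0.306.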

Other observations

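Probe sets with no gene symbol were left out of the comparison above. They were fitted and adjusted on their own, so that their calls are not on the rule used for the 18417 genes. Of these 12083, 201 were called higher and 152 lower, a smaller share than the 32.6% of the genes. Of the called ones 48 differed by 2-fold or more. Nothing is said here of the transcripts behind them.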
